A study of Rattus norvegicus with 6 samples.

Results

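The transcripts described here are those of 10 circadian clock genes, Bmal1 (older symbol Arntl), Clock, Npas2, Per1, Per2, Per3, Cry1, Cry2, Nr1d1 and Dbp, in the renal cortex of the rat. They were found on the array as every probe that is not a control and whose accession matches 1 of these genes, which gave 24 probes for the 10 genes, out of 15645 genes that received a symbol. Of the 24 probes 21 were tested, and each of the 10 genes had at least 1 tested probe. Male Sprague-Dawley rats, 5 weeks old when bought and kept in a light and dark cycle of 12 h each on a basal diet, received either 1,2-dibromoethane at 75 mg/kg/day or corn oil for 4 weeks. The dibromoethane group and the corn oil control group had 3 animals each, and each animal gave 1 single-colour Agilent array of the cortex. The labels used here do not give the hour at which tissue was taken, on which clock transcripts depend, and its part in the values was not tested.

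The mammalian clock is a transcriptional feedback loop found in nearly every cell. BMAL1 pairs with CLOCK or NPAS2 and activates genes that carry E-box elements, among them the Per and Cry genes, whose proteins return to the nucleus and repress that activation. A further loop runs through NR1D1 (REV-ERB alpha), an E-box target that represses Bmal1 through ROR elements, and DBP is an E-box-driven activator that passes the rhythm on through D-box elements. In the kidney the clock is known to shape the daily rhythm of sodium handling, and Per1 is also a direct target of glucocorticoid and mineralocorticoid receptors.

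Promoter windows of the members are shown for the elements through which these loops are wired. RefSeq windows of 300 bases, from 250 before to 50 after an annotated transcription start in the build GRCr8, were given for 9 of the 10 genes, with 11 windows in all. Both strands were searched for the E-box CACGTG, its variant CACGTT, the D-box TTATGTAA and the ROR element core AGGTCA, and no match overlapped another. Of all 33469 windows of this length, 6.42% hold the E-box, 4.83% the variant, 0.893% the D-box and 16.2% the ROR element core. The 4 windows below were chosen because they hold the elements of the loops just described, with matches in capitals and all else in lower case, 5′ to 3′ along the gene.
Bmal1, chr1:176766078-176766377, plus strand: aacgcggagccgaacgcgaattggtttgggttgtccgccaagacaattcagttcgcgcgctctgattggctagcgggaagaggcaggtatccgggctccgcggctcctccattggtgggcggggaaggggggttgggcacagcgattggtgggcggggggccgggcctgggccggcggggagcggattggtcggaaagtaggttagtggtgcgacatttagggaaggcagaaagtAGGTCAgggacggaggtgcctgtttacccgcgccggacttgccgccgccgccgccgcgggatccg
Per2, chr9:99496944-99497243, minus strand: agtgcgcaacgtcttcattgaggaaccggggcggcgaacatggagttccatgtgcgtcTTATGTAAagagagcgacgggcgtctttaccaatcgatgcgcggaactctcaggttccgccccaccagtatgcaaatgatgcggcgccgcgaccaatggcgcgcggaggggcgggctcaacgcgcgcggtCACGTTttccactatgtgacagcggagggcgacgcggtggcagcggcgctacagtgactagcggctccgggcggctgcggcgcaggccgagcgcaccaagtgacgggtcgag
Nr1d1, start 1, chr10:84231763-84232062, minus strand: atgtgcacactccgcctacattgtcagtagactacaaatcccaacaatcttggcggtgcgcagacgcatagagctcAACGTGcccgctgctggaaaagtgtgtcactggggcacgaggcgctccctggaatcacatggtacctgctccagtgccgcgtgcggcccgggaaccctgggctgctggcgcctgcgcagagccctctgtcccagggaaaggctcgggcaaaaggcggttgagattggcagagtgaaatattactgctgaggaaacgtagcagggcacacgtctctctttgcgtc
Nr1d1, start 2, chr10:84229405-84229704, minus strand: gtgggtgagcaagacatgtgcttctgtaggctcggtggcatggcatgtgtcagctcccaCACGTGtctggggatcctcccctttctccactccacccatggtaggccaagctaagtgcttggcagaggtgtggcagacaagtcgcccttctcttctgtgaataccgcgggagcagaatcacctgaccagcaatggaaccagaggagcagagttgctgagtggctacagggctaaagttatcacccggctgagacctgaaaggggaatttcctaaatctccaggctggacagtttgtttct
The Bmal1 window holds a ROR element core whose first base is at position -15 from the start. The Per2 window holds a D-box at position -192 and the E-box variant at position -62. Of the 2 Nr1d1 windows, the one at start 1 holds the E-box variant on the opposite strand at position -174, and the one at start 2 an E-box at position -191. The Cry2 window also holds the variant on the opposite strand, at position -212. None of these letters is found in the windows of Per1, Per3, Clock, Npas2 or Dbp, which says only that they are not in these 300 bases.

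No clock gene passed the test between dibromoethane and control rats, and the member with the smallest p, Per1, was lower in all 3 treated rats than in any control. Values are log2 signals relative to the 75th percentile of the array, which can be compared between animals for a probe but not between probes. Of the 10 genes, 0 had a limma adjusted p under 0.05 and 1, Per1, had an unadjusted p under 0.05, while 0.0311% of all 28961 tested features passed the adjusted threshold and 11.1% the unadjusted one. The groups did not overlap for 1 of the 10 genes, Per1, against 19.5% of all tested features. The log2 fold change was positive for 5 genes and negative for 5, with a median of 0.07, beside -0.02 over all tested features. Of the 21 tested probes 0 passed when each probe was tested by itself, beside 0.0268% of all probes. Among the other 9 genes the smallest limma adjusted p was 0.484, for Dbp. These tests rest on 3 arrays per group, which limits the precision of each difference. In whole tissue, fewer cells of a type and less RNA per cell cannot be told apart.

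**Figure D1:**
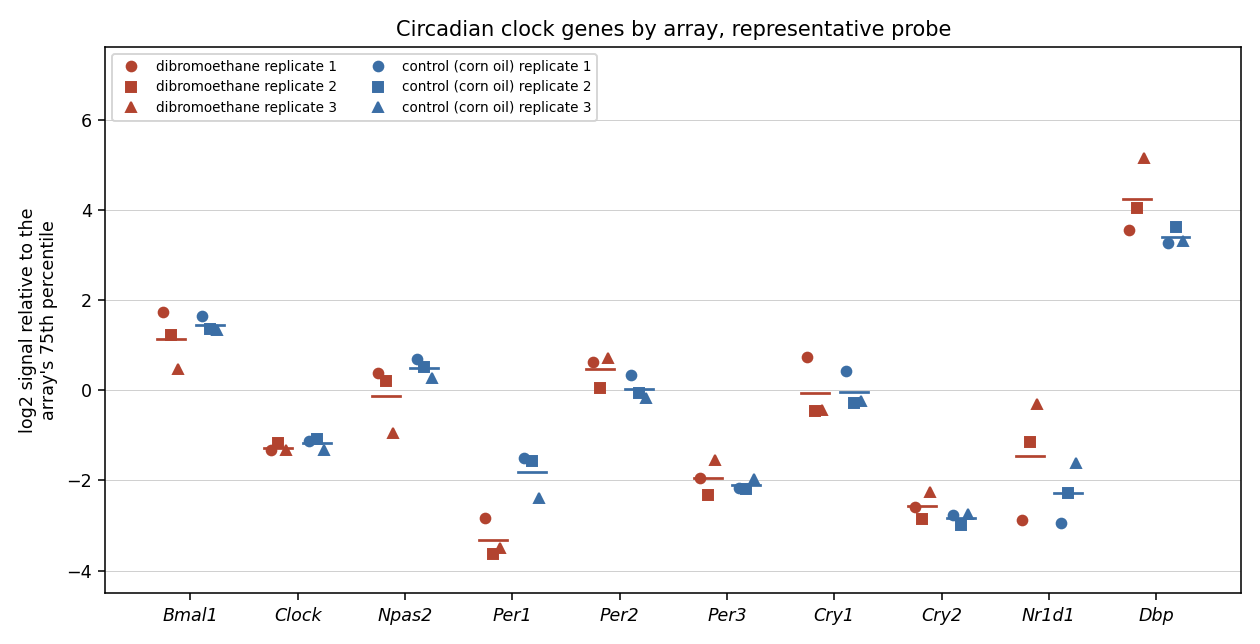
Log2 signal relative to the array's 75th percentile (vertical axis) of the representative probe of each of the 10 clock genes, 3 dibromoethane arrays in red left of 3 control arrays in blue, with bars at group means. For Per1 every dibromoethane point (-3.63 to -2.84) lies below every control point (-2.38 to -1.50), and for the other 9 genes the groups overlap.

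The arrays lay on 3 slides. Slide 1 held dibromoethane replicate 2 and control replicates 1 and 2, slide 2 held dibromoethane replicate 1 and control replicate 3, and slide 3 held dibromoethane replicate 3 alone, so for that animal the slide and the rat cannot be told apart. Between 59.2% and 67.8% of probes on an array were well above background. Markers of the proximal tubule, thick ascending limb, distal nephron and podocyte were well above background on every array. The summed relative signal of 2 thick ascending limb markers, Umod and Slc12a1, spanned 135 to 350.1 in dibromoethane rats and 314 to 340.0 in controls, and the lowest value belonged to dibromoethane replicate 3. The summed signal of 10 liver transcripts spanned 24.1 to 60.2 in dibromoethane rats and 11.4 to 26.0 in controls, with a higher dibromoethane mean for all 10. For 6 proximal tubule markers the sums spanned 971 to 1006 in dibromoethane rats and 1056 to 1093 in controls. For 4 of 5 red cell markers they spanned 139 to 168 in dibromoethane rats and 192 to 223 in controls. Such sums weigh bright probes most, here Slc34a1 and Slc22a6 for the proximal tubule, Umod for the thick ascending limb and Hbb for red cells. The dibromoethane mean was higher for 1 of the 6 proximal tubule markers, Cubn. It was higher for 2 of the 4 red cell markers, Slc4a1 and Ahsp. Ranges of dibromoethane rats against controls overlapped for the distal nephron and collecting duct (110 to 155 against 128 to 151), podocyte (8.36 to 12.6 against 9.81 to 11.4), leukocyte (2.52 to 2.94 against 2.78 to 2.90) and inner medulla lists (0.801 to 0.880 against 0.768 to 1.03). The part of these cell types in the clock values was not tested.

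Per1 encodes a repressor of the loop and responds quickly to steroid hormones and other signals. Its representative probe, A_44_P114034, read -2.84, -3.63 and -3.50 in dibromoethane replicates 1 to 3, against -1.50, -1.56 and -2.38 in control replicates 1 to 3. Every treated animal lay below every control, and control replicate 3 was the control nearest to them. The group means were -3.33 ± 0.43 in dibromoethane rats and -1.81 ± 0.49 in controls (SD, n = 3 each). The log2 fold change was -1.51 (SE 0.31), or 2.85-fold lower in dibromoethane rats, with an unadjusted p of 0.00282 in limma and an adjusted p of 0.263. The adjusted p ran between 0.186 and 0.784 over the alternatives. A change of at least this size, in either direction, was seen in 0.483% of tested features, and 311 features had a p at or below that of Per1.

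The other Per1 probe, A_64_P300243, gave a smaller difference. It read -4.40, -4.91 and -4.89 in dibromoethane rats, where it was well above background on 2 of 3 arrays, against -4.25, -4.19 and -4.43 in controls, where it was on all 3. Here dibromoethane replicate 1 fell inside the control range. The log2 fold change was -0.45 (SE 0.16, limma adjusted p = 0.403). This probe entered the test only through the control arrays, where its mean was higher, so it gives no separate support for a difference. By the representative probe the difference was -2.10 within slide 1 and -0.46 within slide 2, which hold different rats, and -1.40 with slide as a fixed block. It was -0.96 with normexp background correction and -0.98 as the mean of both probes. Probe A_64_P300243 gave -0.69 within slide 1 and 0.03 within slide 2, the single alternative run for either probe that was not negative.

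Per2, the partner repressor, read 0.62, 0.06 and 0.71 in dibromoethane replicates 1 to 3, against 0.35, -0.07 and -0.17 in controls. Replicates 1 and 3 of the dibromoethane group were above all controls and replicate 2 lay among them, for a log2 fold change of 0.42 (SE 0.22, limma adjusted p = 0.512). The value was -0.08 within slide 1 and 0.79 within slide 2.

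Per3, a period protein with a lesser role in keeping the rhythm in mice, had 5 probes, of which 2 were tested. Its representative probe read -1.94, -2.33 and -1.54 in dibromoethane rats, against -2.17, -2.19 and -1.96 in controls. The treated values reached both above and below the controls, with a log2 fold change of 0.17 (SE 0.20, limma adjusted p = 0.780), and the other tested probe gave -0.01 (SE 0.32). Of the 3 Per3 probes that were not tested, none was well above background on a control array. One of these, A_44_P196198, was above background on 2 of 3 dibromoethane arrays and read -5.79, -4.20 and -3.07 there, against -5.76, -5.94 and -5.37 in controls. All 3 dim probes had their highest signal on the array of dibromoethane replicate 3.

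The cryptochromes complete the repressor complex. Cry1 read 0.73, -0.46 and -0.45 in dibromoethane rats, against 0.42, -0.29 and -0.24 in controls, so that in each group replicate 1 stood apart above the other two. Its log2 fold change was -0.02 (SE 0.38, limma adjusted p = 0.987). Within slides the difference ran opposite ways, -0.53 on slide 1 and 0.97 on slide 2.

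Cry2 read -2.58, -2.84 and -2.27 in dibromoethane rats, against -2.76, -2.99 and -2.74 in controls. The groups overlapped through dibromoethane replicate 2, and the log2 fold change was 0.27 (SE 0.16, limma adjusted p = 0.567). It was 0.12 without dibromoethane replicate 3, 0.41 without dibromoethane replicate 2, 0.0882 with slide as a fixed block, 0.0306 within slide 1 and 0.16 within slide 2. Its other probe gave 0.22 (SE 0.13), with 0.0843 without control replicate 2 and 0.14 with normexp.

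**Figure D2:**
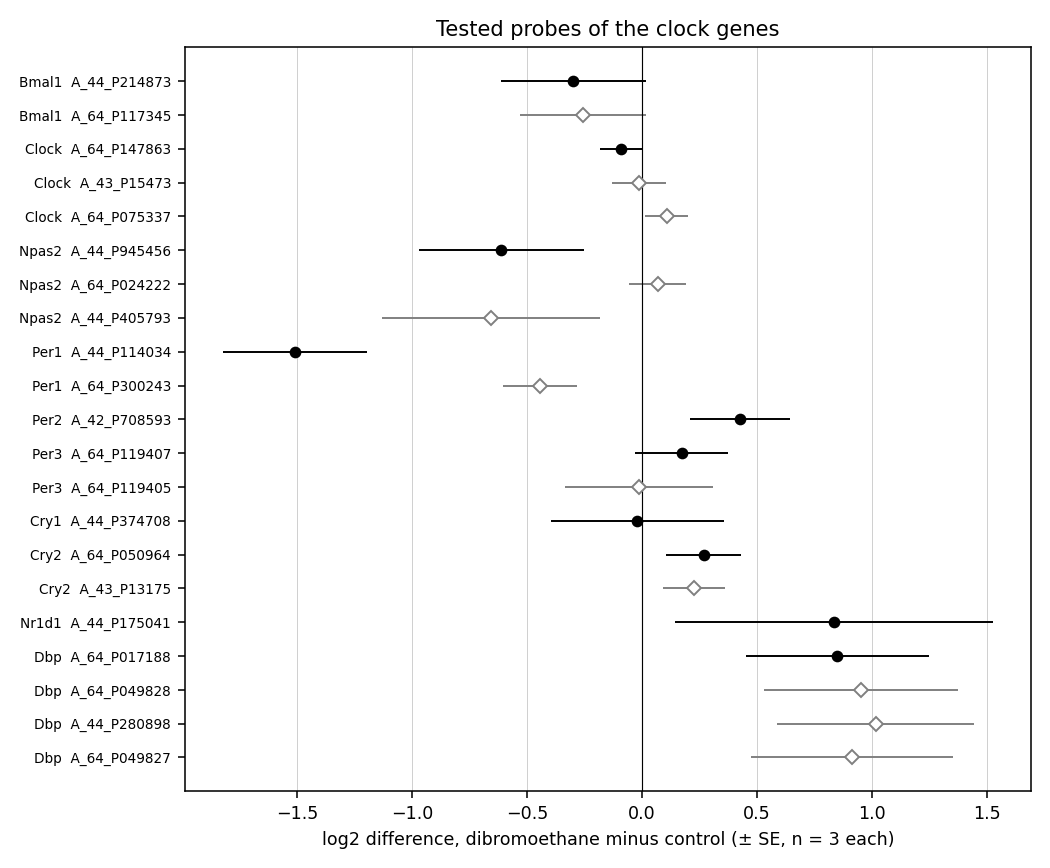
Log2 difference, dibromoethane minus control, with its standard error (horizontal axis), for the 21 tested probes of the clock genes, filled for the representative probe of a gene and open for its other probes (n = 3 each). The 2 Per1 probes lie at -1.51 and -0.45, the 4 Dbp probes between 0.85 and 1.02, and the 3 Npas2 probes on both sides of 0, at -0.61, 0.07 and -0.66.

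Among the activators, Bmal1 read 1.74, 1.22 and 0.47 in dibromoethane replicates 1 to 3, against 1.64, 1.35 and 1.34 in controls. The 3 controls lay within 0.30 of each other, while the treated rats spanned 1.27, with replicate 1 above every control and replicates 2 and 3 below. The log2 fold change was -0.30 (SE 0.32, limma adjusted p = 0.743), and the second probe gave -0.26 (SE 0.28). Without dibromoethane replicate 3 the difference was 0.04, and with slide as a fixed block 0.01.

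Npas2, which can stand in for CLOCK as the partner of BMAL1, read 0.38, 0.21 and -0.95 in dibromoethane rats, against 0.69, 0.51 and 0.27 in controls. The third treated rat was far below the others, and the log2 fold change was -0.61 (SE 0.36, limma adjusted p = 0.554). It was -0.20 without dibromoethane replicate 3, -0.18 with slide as a fixed block, -0.40 as the mean of its probes, -0.39 within slide 1 and 0.11 within slide 2. The 2 other probes disagreed with each other. A_44_P405793 gave -0.66 (SE 0.47) and was also lowest on dibromoethane replicate 3, at -5.47, where it was not well above background. That probe entered the test only through the control arrays, where its mean was higher. A_64_P024222 gave 0.07 (SE 0.12) and was highest on dibromoethane replicate 3.

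Clock itself varied least of the 10 genes within the dibromoethane group. It read -1.32, -1.17 and -1.32 in dibromoethane rats, against -1.13, -1.09 and -1.32 in controls, with a log2 fold change of -0.09 (SE 0.09, limma adjusted p = 0.729). Its 2 other probes gave -0.01 (SE 0.12) and 0.11 (SE 0.09), so the probes do not share a direction.

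Nr1d1, the repressor of Bmal1, had the widest spread in both groups. It read -2.87, -1.15 and -0.31 in dibromoethane replicates 1 to 3, against -2.95, -2.28 and -1.61 in controls. The treated rats spanned 2.56 and the controls 1.34 on the log2 scale, so that the log2 fold change of 0.83 was not much above its error (SE 0.69, limma adjusted p = 0.672). It was 1.46 within slide 1, -1.26 within slide 2, and 0.27 when dibromoethane replicate 3 was omitted. A fixed slide block gave 0.29. Leaving out dibromoethane replicate 1 gave 1.55, and leaving out control replicate 1 gave 0.50. A single probe represents this gene.

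Dbp, the output activator, was measured by 4 probes that gave similar values. The representative one read 3.56, 4.04 and 5.15 in dibromoethane replicates 1 to 3, against 3.26, 3.63 and 3.31 in controls. Replicates 2 and 3 were above all controls and replicate 1 lay among them. The log2 fold change was 0.85 (SE 0.40, limma adjusted p = 0.484), and the other probes gave 0.95 (SE 0.42), 1.02 (SE 0.43) and 0.91 (SE 0.44). The SD was 0.82 in dibromoethane rats and 0.20 in controls. Without dibromoethane replicate 3 the log2 fold change was 0.40, with slide as a fixed block it was 0.45, within slide 1 it was 0.59 and within slide 2 it was 0.25.

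The arrays differed from each other across several members at once. Dibromoethane replicate 3 was alone on slide 3, so its rat and its slide cannot be told apart. On the array of dibromoethane replicate 3, Nr1d1 stood 1.97 and Dbp 1.75 above the control mean, while Npas2 stood at -1.44 and Bmal1 at -0.97 relative to it. Of the 10 genes, 8 had their highest or lowest value of the 6 arrays on this array, beside 39.1% of all tested features. The 5 that were highest were Dbp, Nr1d1, Per2, Per3 and Cry2, and the 3 that were lowest were Bmal1, Npas2 and, by a margin within rounding, Clock. Each of the other arrays held such extremes for 1 to 4 of the 10 genes, beside 27.5% to 35.8% of all tested features. By single probes dibromoethane replicate 3 held 11 highest and 5 lowest of the 21 tested. Some genes count there with several probes, and the share over all probes was not taken. The Clock probe A_43_P15473 was highest on this array. The thick ascending limb sum was lowest on the same array, as given above. So were the distal nephron and collecting duct sum (110, lowest control 128) and the podocyte sum (8.36, lowest control 9.81). The array was not the lowest for the proximal tubule, inner medulla, liver, red cell or leukocyte sums. The part of these markers in the clock values was not tested.

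Dibromoethane replicate 1 had another pattern. Relative to the control mean, Nr1d1 stood at -0.59, with Cry1 at 0.77, Per2 at 0.58 and Bmal1 at 0.30. Control replicate 1 was the control with the highest Cry1 and Bmal1 and the lowest Nr1d1. Dibromoethane replicate 2 had Nr1d1 at 1.12, Dbp at 0.64, Bmal1 at -0.23 and Cry1 at -0.43 relative to the control mean, and was the lowest of the 6 arrays for Cry1, Per1 and Per3. Per1 alone of the 10 genes was below the whole control range in all 3 treated rats, at -1.03, -1.82 and -1.69 relative to the control mean.

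**Figure D3:**
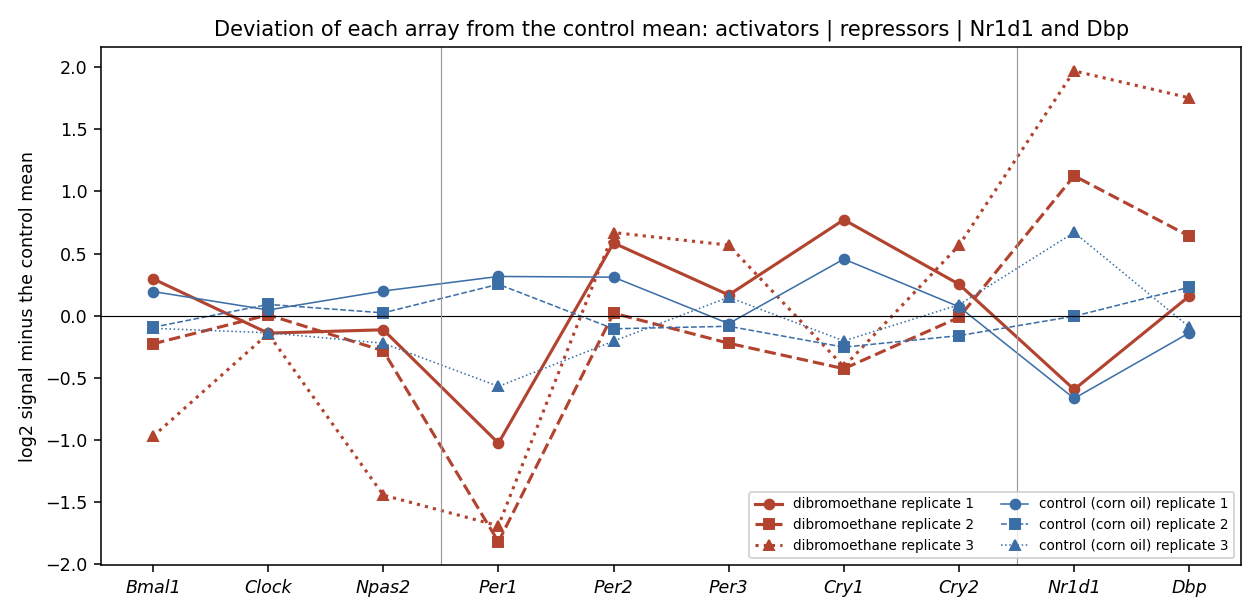
Log2 signal of each array minus the control mean (vertical axis) for the representative probes of the 10 clock genes, with dibromoethane replicates in red and control replicates in blue, joined by lines only to guide the eye. Dibromoethane replicate 3 reaches 1.97 for Nr1d1 and -1.44 for Npas2, and dibromoethane replicate 1 lies at -0.59 for Nr1d1. The 3 red lines all lie below the controls for Per1.

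Regulators attached to the core loop gave 0 calls. Of 11 listed, 7 had a probe with a matched accession and 5 were tested, with 4 positive and 1 negative log2 fold change and a median of 0.11. Tef, a D-box activator related to Dbp, read 2.25, 2.61 and 3.14 in dibromoethane rats, against 2.19, 2.30 and 2.18 in controls (log2 fold change 0.44, SE 0.22, limma adjusted p = 0.506). As with Dbp, the third treated rat was the highest, and without it the log2 fold change of Tef was 0.20. It was 0.23 with slide as a fixed block and 0.0637 within slide 2. The second Tef probe gave 0.42 (SE 0.16, limma adjusted p = 0.417) and its groups did not overlap.

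Nr1d2, the paralogue of Nr1d1, had a value of 0.07 (SE 0.44). Bhlhe40, an E-box repressor, gave 0.11 (SE 0.20), Nfil3, a D-box repressor, -0.08 (SE 0.17), and Bmal2, a paralogue of Bmal1, 0.19 (SE 0.39). Ciart, a repressor of the CLOCK complex, was well above background only on the array of dibromoethane replicate 3 and was not tested. For Rorb, 0 arrays were well above background. No probe was matched for Hlf, Bhlhe41 or Rora, among others.

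Kinases, ubiquitin ligases and cofactors that set the period gave 0 calls. Of the 7 tested genes of this list 4 had a positive and 3 a negative log2 fold change, and their median was 0.01. The smallest p belonged to Timeless (0.28, SE 0.12, limma adjusted p = 0.460), which was 0.0474 within slide 1.

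Of 7 renal genes known to follow the clock in rodents, 0 passed, 3 were positive and 4 negative, with a median of -0.07. Sgk1, a kinase that promotes sodium reabsorption, read 2.65, 2.27 and 2.15 in dibromoethane rats, against 3.48, 3.33 and 3.06 in controls, and the groups did not overlap. Its log2 fold change was -0.93 (SE 0.17, limma adjusted p = 0.236). Edn1, which encodes endothelin-1, gave 0.37 (SE 0.14, limma adjusted p = 0.433). Its probe was well above background on 2 of 3 control arrays and so entered the test through the dibromoethane arrays, and the value was 0.0556 with normexp and 0.0554 within slide 2.

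Per1 and Sgk1 both belong also to the list of glucocorticoid-responsive genes, of which 7 of 8 were tested. All 7 had a negative log2 fold change, 0 passed the adjusted threshold, and the median was -0.88. In 5 of the 7 all treated values lay below all control values, beside 12.1% of all tested features, and 5 had an unadjusted p under 0.05, beside 6.62% of features that had one and were lower in dibromoethane rats. The list was assembled with earlier results of these data known, and 2 of its genes are described above.

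Fkbp5, a co-chaperone of the glucocorticoid receptor, read 1.37, 1.43 and 1.59 in dibromoethane rats, against 2.16, 2.44 and 2.43 in controls. Its log2 fold change was -0.88 (SE 0.11, limma adjusted p = 0.185), and its 2 other probes gave -0.87 and -0.72. Tsc22d3, which encodes the glucocorticoid-induced leucine zipper GILZ, gave -0.88 (SE 0.15, limma adjusted p = 0.221), with -0.51 from its other probe. Klf9, singled out after its values were seen, gave -0.58 (SE 0.13, limma adjusted p = 0.296). Zbtb16 was not well above background on any dibromoethane array and was on 2 of 3 control arrays, so it was not tested. Within slide 1 the difference was -1.14 for Sgk1, -1.02 for Tsc22d3 and -0.87 for Fkbp5. On slide 2 it was -0.41 for Sgk1, -0.54 for Tsc22d3 and -1.06 for Fkbp5. Without dibromoethane replicate 3 the log2 fold change was -0.94 for Fkbp5, -0.80 for Tsc22d3, -0.83 for Sgk1 and -1.42 for Per1. Without the same array it was 0.40 for Dbp and 0.27 for Nr1d1, as given above. That array was the lowest of all for Sgk1 and Tsc22d3, but not for Fkbp5, Klf9 or Per1.

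**Figure D4:**
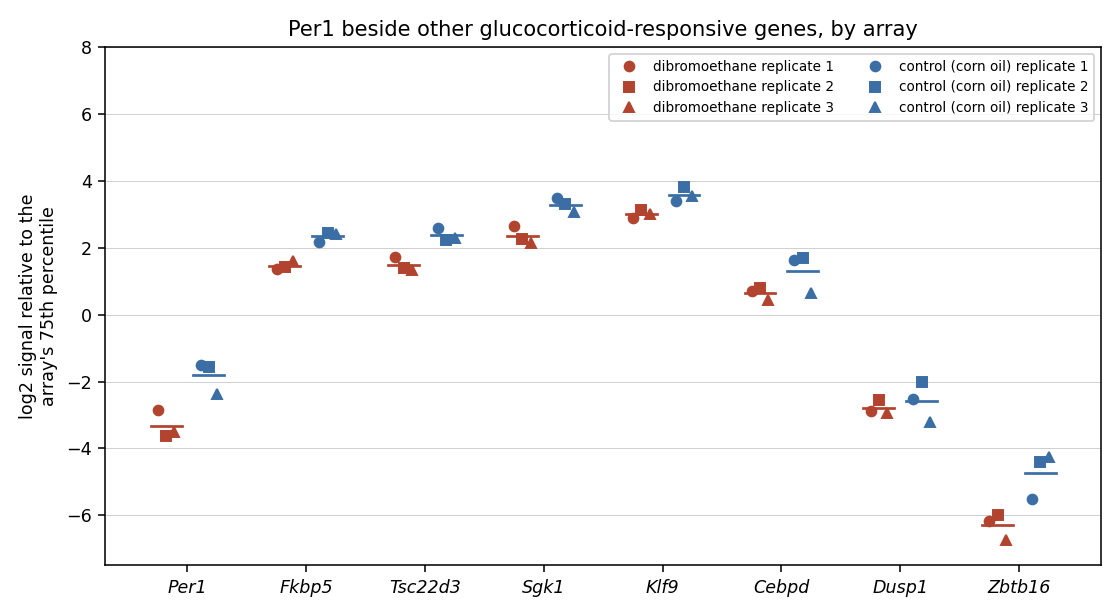
Log2 signal relative to the array's 75th percentile (vertical axis) of Per1 and 7 other glucocorticoid-responsive genes, 3 dibromoethane arrays in red left of 3 control arrays in blue, with bars at group means. For Per1, Fkbp5, Tsc22d3, Sgk1 and Klf9 all red points lie below all blue points, and Zbtb16 was not well above background on any dibromoethane array.

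Genes whose values ran closest to those of Bmal1, Dbp and Per2 were sought among 11412 other tested genes with a symbol. Each gene was centred on its own mean over the 6 arrays, and the root mean square difference from the member was taken. For Bmal1, whose own root mean square deviation was 0.41, the closest were Spock1 (0.10), Rnf125 (0.13) and Skap1 (0.13). For Dbp (0.65) they were Smok2a (0.17), Snx10 (0.28) and Ccnd1 (0.30), and for Per2 (0.33) they were Fundc2b (0.07), Palmd (0.08) and Tti1 (0.10). These are descriptions over 6 arrays that share 3 slides.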

How the data were processed

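Cy3-labelled cRNA from renal cortex was hybridised to 6 single-colour arrays, per the labels' protocols. The scanner tables deposited by the authors give spot intensity, already background-subtracted by Agilent Feature Extraction 10.7.1.1 (design 045522), per the file headers, and the submitters name version 10.7 in their processing notes. A deposited value table gives intensity divided by the array's 75th percentile, a scale found by comparison with the scanner values, with no gene centring seen. Its medians were 0.110, 0.106 and 0.107 in dibromoethane and 0.102, 0.103 and 0.112 in control columns.

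Control spots (1439) and ERCC probes (84) were left out, leaving 61453 probes, of which 28206 were named by matching unversioned accessions to RefSeq genes of GRCr8. Flagged outliers (1 to 11 spots an array) were treated as missing, and 0 spots were saturated. Processed signals were put on a log2 scale after division by the 75th percentile. The brightest probe by mean stood for its gene. A feature entered the test if every array of either group had it well above background. The groups were compared by limma 3.58.1 in R 4.3.3 (lmFit, eBayes, two-sided), with Benjamini-Hochberg adjustment over 28961 features and a threshold of 0.05. Other probes were fitted with each probe by itself. The code was tested on simulated data.

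Named are all members, all measured loop regulators and, of the period-setting, renal and glucocorticoid lists, genes that passed and the 2 with the smallest p, of which 1 is not reported here. Members and lists, cell type markers included, were chosen with earlier results of these data known. Alternatives were other normalizations, filters and probe rules, blocks for slide, scan day and replicate number, the variance prior, the authors' value table and omission of single arrays. Normexp was run on the median signal, a choice made after seeing the files.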

Additional observations from a re-analysis of the deposited data

How the results depend on the processing

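The count of clock genes that passed was 0 in limma under all 20 alternatives, with 1 to 3 of the 10 at an unadjusted p under 0.05. The number of features that passed over the whole array, 9, was 5 with median centring, 5 with normexp, 2 without a filter, 0 with slide as a fixed block (3514 at an unadjusted p under 0.05), 0 on only slides with both groups (3529), 2 with scan day as a fixed block and 17 with trend and robust. With the replicate number as a block it was 0 (3466). Leaving out 1 array gave 1 to 8. The cause was not tested.

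Both groups carry replicate numbers 1 to 3. Same-numbered arrays deviated from their group means with correlations across features of -0.19, 0.26 and 0.16. Whether the numbers pair the animals cannot be settled from these values, since arrays also share slides. The replicate block cannot move a difference, since each number occurs once in each group. With it 0 clock genes passed, the adjusted p of Per1 in limma was 0.347, and 2 of the 3 treated arrays correlated best with their own number among the controls.

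Per1, Dbp, Nr1d1, Npas2, Per2 and Cry2 kept their sign in every fit by their representative probes, although within single slides, given as values with no test, Nr1d1 was -1.26 and Npas2 0.11 on slide 2 and Per2 -0.08 on slide 1. Signs turned for other members and loop regulators, of which 0 passed. With slide as a fixed block, and alike on only slides with both groups, values were 0.0125 for Bmal1, 0.0016 for its second probe, 0.12 for Cry1, -0.0762 for Per3, -0.0175 for the Npas2 probe A_64_P024222, -0.12 for Nr1d2, 0.10 for Nfil3 and -0.29 for Bmal2. Cry1 was 0.0098 with slide as a random block, Clock 5.0e-06 as the mean of its probes, and Nr1d2 -0.0438 with normexp. Leaving out 1 array spanned -0.60 to 0.0354 for Bmal1, -0.52 to 0.0281 for its second probe, -0.42 to 0.21 for Cry1, -0.0272 to 0.37 for Per3, -0.28 to 0.36 for the Per3 probe A_64_P119405, -0.0964 to 0.0829 for the Clock probe A_43_P15473, -0.0452 to 0.14 for the Npas2 probe, -0.23 to 0.52 for Nr1d2, -0.0163 to 0.27 for Bhlhe40, -0.18 to 0.0911 for Nfil3 and -0.17 to 0.56 for Bmal2. The cause was not tested.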
